A study of Homo sapiens with 4 samples.

Results

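Transcript levels of 10 genes of the prostasin system were followed in the established human colon cancer line HCT116 after transient transfection with PRSS8 expression plasmids. They comprise PRSS8, 5 transmembrane serine proteases (ST14, TMPRSS2, TMPRSS4, TMPRSS13 and HPN), 2 Kunitz-type inhibitors (SPINT1 and SPINT2) and 2 serpins (SERPINE2 and SERPINB5). A gene was taken where the array annotation gave its probe set exactly 1 symbol, and all 10 genes had 1 such probe set, out of 22411 genes in all. The series holds 4 Affymetrix whole-transcript arrays of total RNA. The control group is 2 arrays of HCT116 cells transfected with the vector, and the PRSS8 group is 2 arrays of the same line transfected with the PRSS8 plasmids. The labels number the arrays 1 and 2 within each group and call the replicates biological. They do not say whether these came from separate cultures, so p-values measure only the spread between these arrays. Neither the time after transfection nor the share of transfected cells is given in the sources used here.

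Prostasin, the product of PRSS8, is a trypsin-like serine protease held on the surface of epithelial cells by a glycosylphosphatidylinositol anchor. It works in a network with matriptase (ST14), in which each protease can bring about the activation of the other. The Kunitz inhibitors HAI-1 (SPINT1) and HAI-2 (SPINT2) hold both in check. In colon and other absorptive epithelia the network is known for proteolytic activation of the epithelial sodium channel and for upkeep of the barrier.

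Values are log2 levels, so a difference of 1 is a 2-fold change. The array medians over all transcript clusters (gene-level probe sets) were 3.60 and 3.92 on the control arrays and 3.61 and 3.86 on the PRSS8 arrays. Detection calls were not part of the files, so a level near these medians cannot be called present or absent. Arrays of the same number resembled each other more than arrays of the same group (Pearson's r across genes 0.996 and 0.989 against 0.930 and 0.934). Differences are therefore also given within replicate 1 and within replicate 2. Epithelial markers fitted the labelled line in part. KRT8, KRT18, KRT19, CLDN7 and EPCAM had mean levels between 10.55 and 14.36, CDH1 of 8.61 and ELF3 of 5.52, while the intestinal markers CDX2 (3.83 to 4.03) and VIL1 (3.41 to 3.89) lay near the array medians. Mean levels of the fibroblast, leukocyte, endothelial and kidney or neuronal markers did not exceed 4.02 for any of the 15 measured. The highest of these means was that of the fibroblast marker DCN, which stood at 5.13 on control replicate 2 and between 3.34 and 3.85 on the other arrays.

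PRSS8 was far higher on both PRSS8 arrays than on both control arrays. Its level was 10.45 on control replicate 1 and 11.18 on control replicate 2, against 18.55 on PRSS8 replicate 1 and 18.07 on PRSS8 replicate 2. The groups did not overlap, and every array bore out its label. The difference was 8.10 within replicate 1, or 274-fold, and 6.89 within replicate 2, or 119-fold. Over the 4 arrays it was 7.49, with a 95% interval of 6.003 to 8.985 (64.1-fold to 507-fold, limma). No other gene differed as much in either replicate. The next largest upward differences were HERPUD1 at 3.66 within replicate 1 and the small nucleolar RNA gene SNORA2A at 4.23 within replicate 2. In limma the unadjusted p of PRSS8 was 6.35e-05, but its adjusted p over 22411 genes was 1 after rounding. The moderated SE of 0.57 draws on the spread of other genes as well as on 2 residual degrees of freedom of PRSS8 itself, and the fit has no term for the replicate number. PRSS8 passed without control replicate 1 (difference 7.13, limma adjusted p of 3.44e-06) and without control replicate 2 (7.86, 2.23e-10), in fits where 1 array stood for its group. It did not pass without PRSS8 replicate 1 (7.26) or without PRSS8 replicate 2 (7.73), both with an adjusted p of 1 after rounding.

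The 2 control arrays differed from each other in PRSS8 by 0.73 (replicate 2 higher), and the 2 PRSS8 arrays by 0.48 (replicate 1 higher). On the control arrays the probe set stood 6.85 and 7.26 above the array median, so a PRSS8 signal was there without the plasmid. On the PRSS8 arrays it stood 1.38 below the highest value of the array in both replicates. The probe set cannot tell apart plasmid RNA from RNA of the cells' own gene. In a pool of cells, the share of cells that carried the plasmid and the amount of RNA in each cannot be told apart either.

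The genes next to PRSS8 on chromosome 16 in RefSeq's order did not show a difference of this size. PRSS36, another trypsin-like protease gene and the nearest protein-coding neighbour on one side, differed by 0.02 within replicate 1 and 0.06 within replicate 2. KAT8, a histone acetyltransferase gene on the other side, differed by −0.03 and 0.56. Beyond these, BCKDK differed by −0.04 and 0.16, PYCARD by 0.02 and −0.04, VKORC1 by 0.02 and 0.42, and TRIM72 by 0.11 and −0.02.

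Likeness to the PRSS8 profile was measured as the root mean square distance between mean-centred levels over the 4 arrays. The nearest 3 genes were HERPUD1 (1.97), HSPA5 (2.81) and HYOU1 (2.82), all genes of the endoplasmic reticulum stress response. A flat profile would lie 3.76 from PRSS8, so none of the 3 came close to it in size. This is a ranking by size and direction over 4 arrays, with no test.

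**Figure D1:**
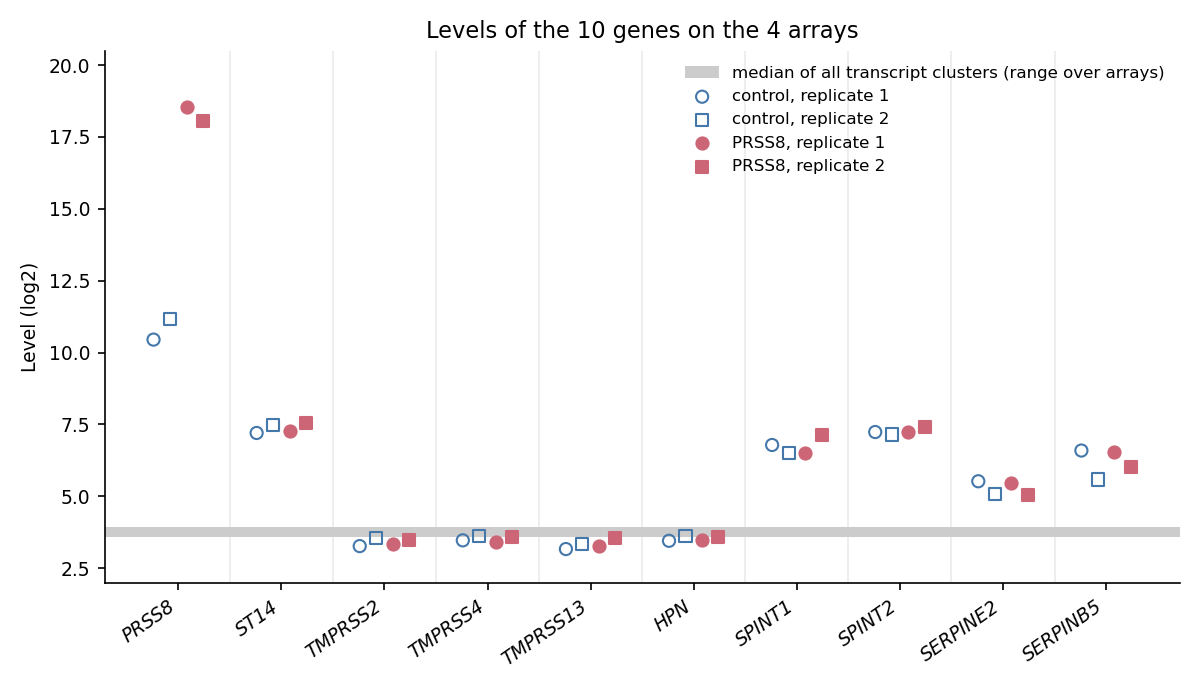
Log2 level (vertical axis) of the 10 genes on each array; blue open symbols are control arrays, red filled symbols PRSS8 arrays, circles replicate 1 and squares replicate 2, and the grey band spans the array medians over all transcript clusters (3.60 to 3.92). PRSS8 moved from 10.45 and 11.18 to 18.55 and 18.07, while the symbols of every other gene overlap between the groups.

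ST14 encodes matriptase, a type II transmembrane serine protease and the closest partner of prostasin. Its level was 7.21 and 7.47 on the control arrays and 7.28 and 7.53 on the PRSS8 arrays (replicates 1 and 2). Within each group replicate 2 was the higher, and the groups overlapped. The difference was 0.07 within replicate 1 and 0.06 within replicate 2, while the replicate numbers differed by 0.26 on average. Over the 4 arrays the difference was 0.07 (SE 0.49, 95% interval −1.22 to 1.35), so this fit, which has no term for the replicate number, bounds a change of ST14 to between 0.430-fold and 2.55-fold. The sign of this difference is not settled, as it was −0.06 after quantile normalization. The difference within replicate 2 was −0.19 after quantile normalization and −0.055 after cyclic loess, so ST14 was then not higher in both replicates.

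The other 4 transmembrane proteases lay below the array medians. The lower quartiles over all transcript clusters were 3.27 and 3.55 on the control arrays and 3.28 and 3.50 on the PRSS8 arrays. HPN encodes hepsin, a protease first described in liver. TMPRSS2 is an androgen-regulated protease that cleaves viral envelope proteins, and TMPRSS4 is a relative that can activate the epithelial sodium channel. All 3 were between 3.27 and 3.63 on every array, and their groups overlapped. TMPRSS2 differed by 0.08 within replicate 1 and −0.08 within replicate 2, HPN by 0.02 and −0.02, and TMPRSS4 by −0.05 in both. Over the 4 arrays the 95% intervals were −0.42 to 0.42 for TMPRSS2, −0.36 to 0.36 for HPN and −0.42 to 0.33 for TMPRSS4. The sign for HPN was positive after quantile normalization, median centring and cyclic loess.

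TMPRSS13, a further type II transmembrane protease of epithelia, was somewhat higher with PRSS8 in both replicates. Its level was 3.17 and 3.35 on the control arrays against 3.28 and 3.55 on the PRSS8 arrays. PRSS8 replicate 1 was below control replicate 2, so the groups overlapped as deposited. The difference was 0.11 within replicate 1 and 0.20 within replicate 2, and 0.15 over the 4 arrays (SE 0.16, limma adjusted p = 1 after rounding). All 4 values were 0.31 to 0.57 below the array medians, and under the lower quartile except on PRSS8 replicate 2. Of all genes, 29.4% had a larger absolute difference over the 4 arrays.

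The Kunitz inhibitor genes SPINT1 and SPINT2 both stood well above the array medians. SPINT1 encodes HAI-1, the membrane inhibitor of matriptase and prostasin. It stood at 6.79 on control replicate 1, 6.50 on control replicate 2, 6.52 on PRSS8 replicate 1 and 7.12 on PRSS8 replicate 2. The last was the highest of the 4, and the PRSS8 array of replicate 1 lay between the 2 controls. SPINT1 therefore differed by −0.27 within replicate 1 and by 0.62 within replicate 2 (0.829-fold and 1.54-fold). Among all genes, 14.0% differed more than SPINT1 in absolute size within replicate 1 and 7.04% within replicate 2. Of all 22411 genes 5788 averaged 6 or higher, among them SPINT1, SPINT2, ST14 and SERPINB5. Genes averaging 6 or higher had a median difference of −0.02 within replicate 1 and 0.22 within replicate 2. Over all genes these medians were −0.001 and 0.009. Over the 4 arrays the median absolute difference was 0.17 for such brighter genes and 0.09 for all genes. Over the 4 arrays the difference of SPINT1 was 0.18 (SE 0.45, 95% interval −0.997 to 1.350).

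SPINT2 encodes HAI-2, an inhibitor that binds prostasin and matriptase during their passage to the cell surface. Its levels were 7.24 and 7.15 on the control arrays and 7.24 and 7.42 on the PRSS8 arrays. Only PRSS8 replicate 2 stood apart from the other 3 arrays, which lay within 0.08 of each other. The difference was −0.002 within replicate 1 and 0.26 within replicate 2, and 0.13 over the 4 arrays (SE 0.47, 95% interval −1.09 to 1.35). After quantile normalization the difference within replicate 2 was −0.0006 for SPINT2 and 0.44 for SPINT1. The mean level of the 9 epithelial markers was also highest on PRSS8 replicate 2 (9.60, against 9.32 on PRSS8 replicate 1 and 9.23 and 9.09 on the control arrays), and its part in these differences was not tested.

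The serpin genes varied mainly with the replicate number. SERPINE2 encodes protease nexin-1, a secreted serpin that inhibits prostasin as well as thrombin and urokinase. It stood at 5.53 and 5.07 on the control arrays and at 5.45 and 5.04 on the PRSS8 arrays. In both groups replicate 1 was the higher, by 0.46 in the controls and 0.42 with PRSS8. The differences between the groups were −0.07 within replicate 1 and −0.03 within replicate 2.

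SERPINB5 encodes maspin, an epithelial serpin studied as a tumour suppressor that does not act as a classical protease inhibitor. It stood at 6.59 and 5.59 on the control arrays and at 6.53 and 6.01 on the PRSS8 arrays. The replicate numbers differed by −1.01 in the controls and −0.52 with PRSS8 (replicate 2 minus replicate 1), more than for any other gene of the 10 on average. The difference between the groups was −0.06 within replicate 1 and 0.42 within replicate 2. Over the 4 arrays it was 0.18 (SE 0.49), less than the gap between the 2 arrays of either group.

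**Figure D2:**
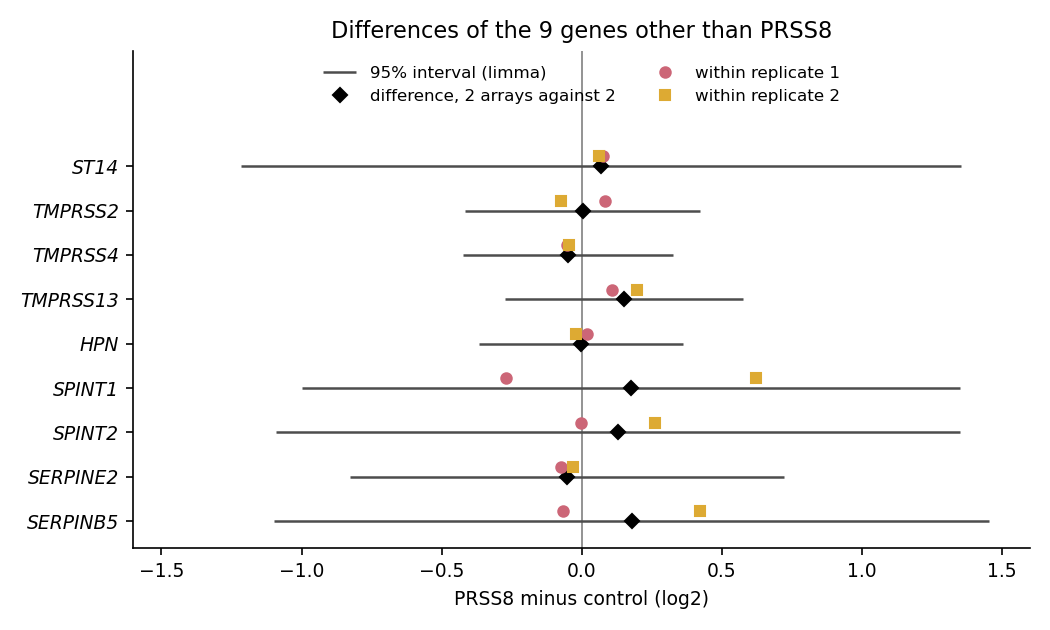
Difference between PRSS8 and control (horizontal axis, log2) for the 9 genes other than PRSS8; diamonds are the difference of 2 arrays against 2 with its 95% interval from limma, circles the difference within replicate 1 and squares within replicate 2. The fit behind the intervals has no term for the replicate number. Every interval includes 0, and the circles and squares of SPINT1 (−0.27 and 0.62) and SERPINB5 (−0.06 and 0.42) lie farthest apart.

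None of the 10 genes passed an adjusted p under 0.05 in limma, and neither did any of the 22411 genes (0% higher and 0% lower). At an unadjusted p under 0.05, 17 genes were higher (0.0759%) and 25 lower (0.112%), and PRSS8 was the one among the 10. With 2 arrays in each group, the smallest two-sided p that an exact permutation test allows is 0.333. Without a test, 3 of the 10 genes were higher in both replicates (PRSS8, ST14 and TMPRSS13), where 26.0% of all genes were. In both replicates 2 were lower (TMPRSS4 and SERPINE2), where 24.5% of all genes were. The other 5 differed in opposite directions in the 2 replicates, as did 49.3% of all genes. Apart from PRSS8, which was transfected, these shares are near the background. PRSS8 was the 1 gene of the 10 whose groups did not overlap upward (5.53% of all genes), and no gene of the 10 did so downward (5.56% of all genes). These counts depend on the scaling of the arrays. Upward, 2 genes did not overlap after quantile normalization and 2 after cyclic loess (PRSS8 and TMPRSS13), and 4 after median centring (also SPINT2 and HPN). After median centring 5 of the 10 were higher in both replicates. After quantile normalization and after cyclic loess ST14 was not higher in both. The shares of all genes under these scalings were not counted. Median centring moved the median difference of all genes from 0.0006 to 0.0294. As deposited, PRSS8 was also the 1 gene of the 10 with groups at least 1.5-fold apart upward (0.0714% of all genes) and with a difference of at least 1.5-fold upward in both replicates (0.460%), and no gene of the 10 met either condition downward (0.0357% and 0.156%). Of the 5 genes of the set with a mean level of 6 or more, 2 were higher in both replicates (PRSS8 and ST14) and 0 lower, where 38.0% and 15.0% of all such genes were.

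For the 9 genes without PRSS8 the median difference was 0.07 and the median absolute difference 0.07, beside 0.0006 and 0.09 over all genes. The gap between the replicate numbers was taken as the signed mean over both groups. Its absolute size exceeded that of the difference between the groups for 7 of the 9 genes, and for 84.9% of all genes. The exceptions were SPINT1 and SPINT2, whose gaps had opposite signs in the 2 groups and partly cancelled. For SPINT1 they were −0.29 in the controls and 0.60 with PRSS8, beside a group difference of 0.18. For SPINT2 they were −0.08 and 0.18, beside a group difference of 0.13. PRSS8 exceeded every other gene of the set by at least 7.99 within replicate 1 (over TMPRSS13) and 6.27 within replicate 2 (over SPINT1). So the level of PRSS8 RNA relative to that of each protease and inhibitor of the set was higher on both PRSS8 arrays.

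**Figure D3:**
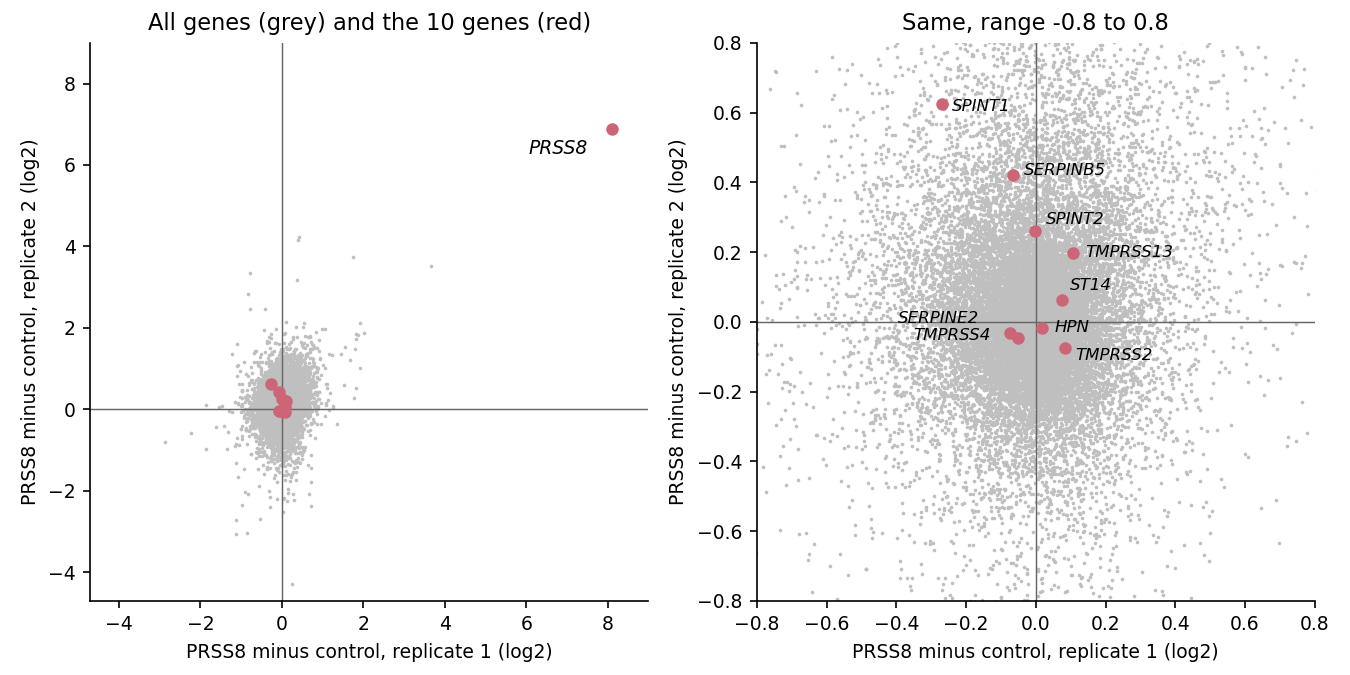
Difference between PRSS8 and control within replicate 1 (horizontal axis) and within replicate 2 (vertical axis), both log2, for all genes (grey) and the 10 genes (red); the right panel enlarges the range from −0.8 to 0.8. PRSS8 lies alone at 8.10 and 6.89, and the other 9 genes lie inside the cloud of all genes.

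Relatives and targets outside the set were described through 5 lists, in none of which a member passed the threshold. Of 12 other type II transmembrane serine protease genes, all 12 had mean levels under 4.5, with CORIN, the protease that processes natriuretic peptides, the highest at 4.12. In both replicates 2 were higher and 3 lower, beside 26.0% and 24.5% of all genes, and the median difference was −0.03. CORIN differed by −0.07 (SE 0.14), TMPRSS9 by −0.04 (SE 0.14), TMPRSS11B by −0.03 (SE 0.22) and TMPRSS15, the enteropeptidase that activates trypsinogen, by −0.09 (SE 0.20).

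Tryptase-like relatives of prostasin were equally dim. All 10 measured of 11 listed had mean levels under 4.5, and 5 were higher and 1 lower in both replicates, beside 26.0% and 24.5% of all genes, with a median difference of 0.04. In 3 of the 10 (TPSG1, PRSS41 and PRSS55, the last named after its values were seen) the groups did not overlap upward, beside 5.53% of all genes. TPSG1, a membrane-anchored tryptase gene, stood at 4.19 and 4.32 on the control arrays and 4.38 and 4.47 on the PRSS8 arrays (difference 0.17, SE 0.15). PRSS41 differed by 0.13 (SE 0.13), PRSS22 by 0.01 (SE 0.19) and PRSS27 by −0.05 (SE 0.15).

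Among other Kunitz-domain genes, 9 of 10 were measured and 3 were bright, the amyloid precursor genes APP and APLP2 and TFPI, the tissue factor pathway inhibitor. APP was lower with PRSS8 by a like amount in both replicates. It stood at 11.48 and 9.80 on the control arrays and 10.95 and 9.29 on the PRSS8 arrays, a difference of −0.53 within replicate 1 and −0.51 within replicate 2. The replicate numbers differed by far more, so the groups overlapped and the SE over the 4 arrays was 1.06. APLP2 differed by −0.63 and 0.41, and TFPI by −0.14 and −0.28. WFIKKN2, at a mean level of 3.79, differed by −0.01 and −0.20. Counted over the list, 3 genes were higher and 3 lower in both replicates, beside 26.0% and 24.5% of all genes. The median difference was −0.10.

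Of 18 other serpin genes 15 were measured, with a median difference of −0.01. In both replicates 5 were higher and 4 lower, beside 26.0% and 24.5% of all genes. The brightest was SERPINB1, an inhibitor of neutrophil proteases. It stood at 8.64 and 8.04 on the control arrays and 8.94 and 8.83 on the PRSS8 arrays, so the groups did not overlap (difference 0.55, SE 0.65, limma adjusted p = 1 after rounding). In the list 2 of 15 genes did not overlap upward (SERPINB1 and SERPINF2) and 1 downward (SERPING1), beside 5.53% and 5.56% of all genes; SERPINF2 and SERPING1 were named after their values were seen. SERPINB9, the granzyme B inhibitor, differed by 0.42 (SE 0.59) and SERPINB8 by 0.47 (SE 0.39), both positive within each replicate. SERPINH1, the collagen chaperone HSP47, differed by −0.03 (SE 0.31).

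Of 13 substrates and targets of the network 11 were measured, with a median difference of 0.01. In both replicates 2 were higher and 2 lower, beside 26.0% and 24.5% of all genes. Among genes averaging 6 or higher these shares were 38.0% and 15.0%. In 1 of the 11 (PLAU, named after its values were seen) the groups did not overlap upward, beside 5.53% of all genes. CDCP1, a transmembrane glycoprotein that serine proteases cleave, stood at 11.75 and 10.41 on the control arrays and 12.23 and 11.31 on the PRSS8 arrays. Its difference was 0.48 within replicate 1 and 0.90 within replicate 2, and the groups overlapped because control replicate 1 exceeded PRSS8 replicate 2. EPCAM, a matriptase substrate at cell contacts, differed by −0.15 and 0.55, and MET, the receptor of hepatocyte growth factor, by −0.25 and 0.32. SCNN1A, the alpha subunit of the epithelial sodium channel, differed by −0.20 and 0.30.

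**Figure D4:**
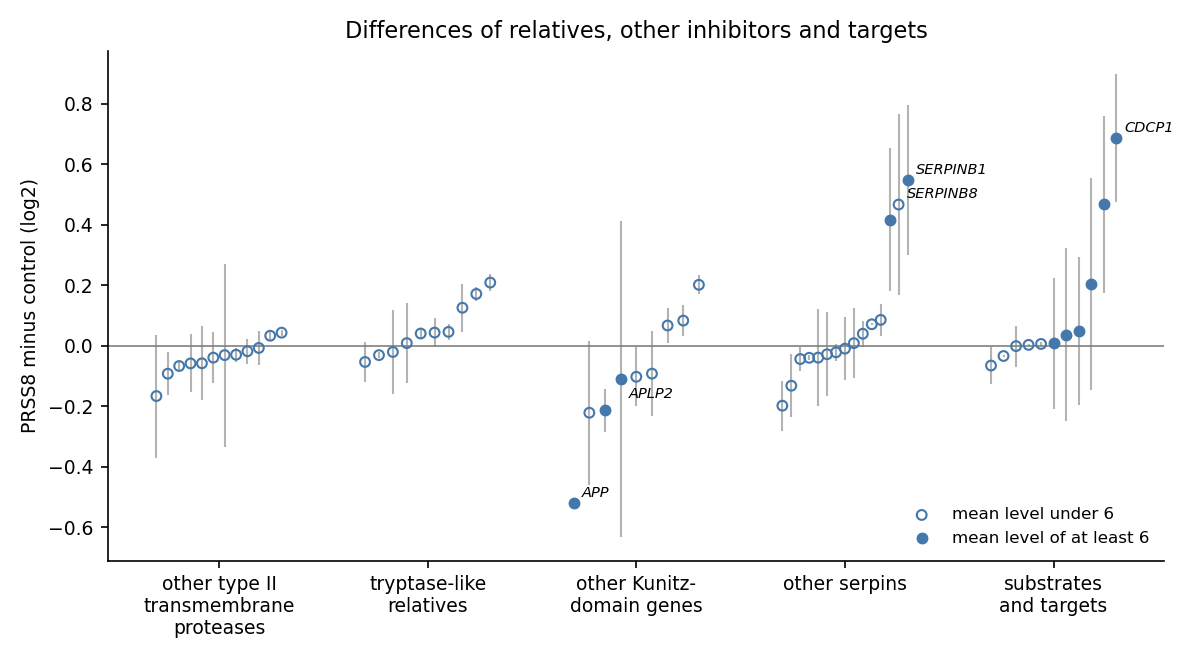
Difference between PRSS8 and control over the 4 arrays (vertical axis, log2) for each measured gene of the 5 lists, in order of size within a list; filled points have a mean level of at least 6, open points a lower one, and grey lines join the differences within replicates 1 and 2. Genes of the 2 protease lists stay between −0.17 and 0.21, while APP (−0.52), SERPINB1 (0.55) and CDCP1 (0.69) lie farthest from 0.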

How the data were processed

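Per the submitters' processing notes, the authors made the deposited log2 levels per probe set with Affymetrix Expression Console 1.3.1 and RMA. The genome build of the annotation, and whether RMA ran on all 4 arrays at once, are not given in the sources used here. Only transcript clusters were used, and those with 1 symbol gave 22411 genes (symbols updated through RefSeq GRCh38.p14 by Entrez identifier; the highest mean stood for a gene with several). The groups were compared over all genes in R 4.3.3 with limma 3.58.1 (lmFit and trended eBayes), with two-sided p-values adjusted over all genes by Benjamini-Hochberg. Differences are PRSS8 minus control, with moderated SE. The code was tested on simulated data with the same spread for every gene and no gap between replicate numbers. That test does not show what size of difference the fit can detect on these arrays. Precision is limited by the number of arrays. The 10 genes, the lists and the tests were chosen with earlier results of these data known. The genes named from a list are the 4 with the highest mean level. The next largest genes of each replicate, the neighbours of PRSS8 and the markers were named outside this rule. Dim probe sets were kept.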

Additional observations from a re-analysis of the deposited data

How the results depend on the processing

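Of the 8 settings that kept all arrays, only those that rescaled the levels could move the difference of PRSS8. It was 7.486 after quantile normalization, 7.523 after median centring and 7.388 after cyclic loess. The others gave 7.494 each, since they leave the group means of PRSS8 as they are, and so do not test its size. PRSS8 differed by 7.13 to 7.86 with an array left out. It passed without control replicate 1 (7.13, with a limma adjusted p of 3.44e-06) and without control replicate 2 (7.86, with 2.23e-10), and so was 1 member past the threshold there and 0 otherwise. Over all genes, 0 to 5 were then higher and 0 to 59 lower; such fits carry part of the gap between the replicate numbers, assume that the lone array varies like the other group, and do not show a firmer effect. With the replicate block PRSS8 had a limma adjusted p of 0.0765 (SE 0.37) and no call changed. The 95% intervals were then −0.40 to 0.54 for ST14, −0.47 to 0.82 for SPINT1 and −0.35 to 0.61 for SPINT2. For SERPINE2 the interval was −0.34 to 0.24 and for SERPINB5 −0.28 to 0.63. These intervals are narrower than those without the block, and each includes 0. Same-numbered arrays deviated together (r = 0.91 across genes), but the labels do not say that a number marks a shared batch. Among the other 9 genes the sign turned for ST14 after quantile normalization (−0.0576) and for HPN after quantile normalization (0.0179), median centring (0.0282) and cyclic loess (0.0164). With an array left out the ranges were −0.0649 to 0.202 for ST14, −0.12 to 0.48 for SPINT1, −0.14 to 0.15 for TMPRSS2, −0.134 to 0.0361 for TMPRSS4, −0.0839 to 0.0828 for HPN, −0.28 to 0.18 for SERPINE2 and −0.32 to 0.68 for SERPINB5, while SPINT2 (0.04 to 0.22) and TMPRSS13 (0.02 to 0.29) stayed positive. Members with groups that did not overlap upward numbered 2 after quantile normalization and 2 after cyclic loess (PRSS8 and TMPRSS13), and 4 after median centring (also SPINT2 and HPN). Members higher in both replicates numbered 3 after quantile normalization (PRSS8, TMPRSS13 and HPN) and 4 after cyclic loess (also SPINT2), in both without ST14. They numbered 5 after median centring and 1 at 1.5-fold or more. Lower in both were 1 after quantile normalization (SERPINE2), 1 after median centring (TMPRSS4) and 0 at 1.5-fold or more. The cause of these changes was not tested, and the shares of all genes under these scalings were not counted. Genes below the median level left out removed TMPRSS2, TMPRSS4, TMPRSS13 and HPN from the fit.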

Other observations

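Several genes around the network differed far more between the replicate numbers than between the groups. MET stood at 12.31 on control replicate 1 and 8.87 on control replicate 2, and at 12.06 and 9.19 on the PRSS8 arrays. APLP2 stood at 13.06 and 10.50 on the control arrays and at 12.43 and 10.91 on the PRSS8 arrays. TFPI stood at 8.998 and 6.571 on the control arrays and at 8.85 and 6.29 on the PRSS8 arrays. Over all genes the median gap (replicate 2 minus replicate 1) was 0.14, and over the 9 genes of the set without PRSS8 it was 0.16. Genes averaging 6 or higher, as these 3 do, had a median gap of −0.40. Their median absolute gap was 0.88, beside 0.27 over all genes. For 89.0% of these brighter genes the gap exceeded the group difference in absolute size, so this was not particular to genes around the network. PLAU, the urokinase gene, was chosen after its values were seen. It stood at 6.19 and 6.15 on the control arrays and 6.37 and 6.91 on the PRSS8 arrays. The groups did not overlap (difference 0.47, SE 0.39, limma adjusted p = 1 after rounding). This held upward for 1 of the 11 measured substrates and targets and for 5.53% of all genes.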
